A study of Rattus norvegicus with 8 samples.

Results

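Expression of tubulin genes was followed in NR8383, an established cell line of rat alveolar macrophages that was derived by washing out the lung of a healthy rat. The family was taken as 9 genes: 4 alpha-tubulin genes (Tuba1a, Tuba1b, Tuba1c and Tuba4a), 4 beta-tubulin genes (Tubb2a, Tubb4b, Tubb5 and Tubb6) and the gamma-tubulin gene Tubg1. They were chosen by name, as all non-control probes whose gene name in the scanner files was one of these 9, of 36306 gene names on the array. The rule gave 15 probes and 37 spots on each array. All 15 probes were well above background on all 8 arrays, so each of the 9 genes was among the 17445 genes tested. Control cells were kept for 4 h without fetal bovine serum and without nanotubes. NM401 cells were kept for 4 h, also without serum, with NM401, a multi-walled carbon nanotube, at 0.17 µg/mL. Each condition had 4 biological replicates per the labels, hybridised singly to 1-colour Agilent arrays. The labels do not say that these were separate cultures, so p-values measure the spread between these samples. NR8383 is 1 established line, so replicates share its genotype, and the model holds macrophages alone, without the other cells of the lung. The comparison asks whether the messengers of tubulin differ between cells kept with and without the nanotubes.

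Alpha- and beta-tubulin form the heterodimers that polymerise into microtubules, and gamma-tubulin in its ring complex seeds new ones. Cells carry several genes for each subunit, called isotypes, whose proteins differ mainly in the acidic tail at the C-terminal end. Cells also adjust tubulin messengers to the pool of free dimers: when free dimers accumulate, the ribosome-bound factor TTC5 recognises the emerging tubulin chain and recruits a deadenylase complex that degrades the messenger. In macrophages, microtubules carry phagosomes, lysosomes and secretory vesicles and help shape the spreading cell.

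The sequences of 4 probes are printed under the genes that the files' accession lists tie them to. They are the 60-base probe sequences of the deposited files, 5′ to 3′ in the sense of the messenger, with positions on rat build rn4 as the files give them. The first and the fourth are shown as probes tied to 1 gene. The second is shown because it lies at the end of the Tuba4a reading frame. The third is shown because the files' accession list ties it to 2 neighbouring isotypes.
Tuba1c (probe A_64_P154249, chr7:137817177-137817235, plus strand): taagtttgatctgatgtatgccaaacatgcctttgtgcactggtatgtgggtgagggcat
Tuba4a (probe A_64_P122238, chr9:74496576-74496635, minus strand): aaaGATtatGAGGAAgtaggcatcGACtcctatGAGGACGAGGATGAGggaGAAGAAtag
Tubb2a and Tubb2b (probe A_44_P1081500, chr17:37142111-37142170, plus strand): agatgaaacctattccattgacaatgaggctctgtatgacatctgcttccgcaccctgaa
Tubb5 (probe A_44_P172814, chr20:3063856-3063915, plus strand): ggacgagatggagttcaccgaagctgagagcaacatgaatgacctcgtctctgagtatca
In the Tuba4a probe, capitals mark in-frame codons that begin with ga, which encode the acidic residues aspartate and glutamate. They were 11 of its 20 codons. The probe ends in the stop codon tag, and the codon before it is gaa, for glutamate, whereas most alpha-tubulin genes encode a terminal tyrosine. Apart from 1 pair of Tuba1c probes that share a run of 54 bases, no pair among the 15 probes shared a run longer than 8 bases. This compares the probes with one another only. No probe was aligned to the messenger of another isotype, so cross-reading between isotypes was not tested.

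Values are log2 of the background-subtracted signal minus log2 of the 75th percentile of that signal on the same array, so a value of 0 is the signal at that percentile. A difference between groups is therefore relative to the bulk of the signal on each array. The 75th percentile itself differed: its mean was 1240 over the control arrays (SD 225, n = 4) and 2690 over the NM401 arrays (SD 173, n = 4), an exact permutation p of 0.0286 (two-sided), the smallest that 4 against 4 allow. All 4 control arrays and NM401 replicate 1 lay on slide 1, and NM401 replicates 2 to 4 on slide 2. With slide as a block, the treatment estimate therefore rests on NM401 replicate 1 against the 4 controls, as it does within slide 1 alone. Control arrays lay in row 1 and NM401 arrays in row 2 of a slide, and the effects of row and of treatment cannot be told apart. The spike-in probes stood 2.82 to 3.81 log2 units above the 75th percentile on control arrays and 0.64 to 1.13 above it on NM401 arrays. Scaled to the spike-ins instead, the median gene was 2.20 log2 units higher in NM401. Every one of the 9 tubulin genes was then called higher, as were 17056 of all 17445 genes. Of 15 macrophage markers, 13 were tested, with a summed level of 217 to 228 times the 75th percentile in control and 213 to 225 in NM401. Of these 13, 3 were called higher (Tyrobp 0.35, Spi1 0.56 and Adgre1 1.49 on the log2 scale, the last well above background on 1 control array) and 3 lower (Cd68 -0.36, Lyz2 -0.16 and Mrc1 -0.59), and Marco was too dim to be tested. None of 7 neuron markers was tested, and 1 of 8 epithelial markers (Foxj1), 3 of 7 fibroblast and endothelial markers (Col1a2, Cdh5 and Pecam1) and 1 of 5 lymphocyte markers (Cd3d) were. The summed level of the fibroblast and endothelial markers was 0.748 to 0.798 in control and 0.582 to 0.684 in NM401, where Col1a2 (-1.20) and Cdh5 (-1.15) were called lower without overlap and Pecam1 (-0.09) was not called. Cd3d was called lower as well (-0.79), at a level of 0.0812 to 0.112 times the 75th percentile in control and 0.0491 to 0.062 in NM401. The part of these differences in the tubulin results was not tested.

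With NM401, the family did not move as a block. Tubb6, a divergent beta isotype, rose 1.65-fold, Tuba1b, a broadly expressed alpha isotype, fell 1.55-fold, and Tuba1a, an alpha isotype best known from developing neurons, rose 1.16-fold (4 arrays per group). Tuba1c, Tuba4a, Tubb2a, Tubb4b, Tubb5 and Tubg1 did not pass the test. Thus 2 of 9 genes were called higher, 1 lower and 6 in neither direction (limma, adjusted p below 0.05). Over all 17445 genes tested, 57.3% were called, 21.9% higher and 35.4% lower. The 4 values of each condition were fully separated in 2 of the 9 genes, Tuba1b and Tubb6, with no overlap, as they were in 53.2% of all genes. The median log2 fold change was 0.03 over the 9 genes and -0.10 over all genes, whose median absolute change was 0.32. Ranked among all genes by log2 fold change, Tubb6 stood at percentile 95.2, Tuba1a at 75.8, Tuba1b at 14.7 and the other 6 between 37.7 and 65.5. Each direction is relative to the array's own signal. In bulk RNA, fewer cells with a messenger and less of it per cell cannot be told apart.

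**Figure D1:**
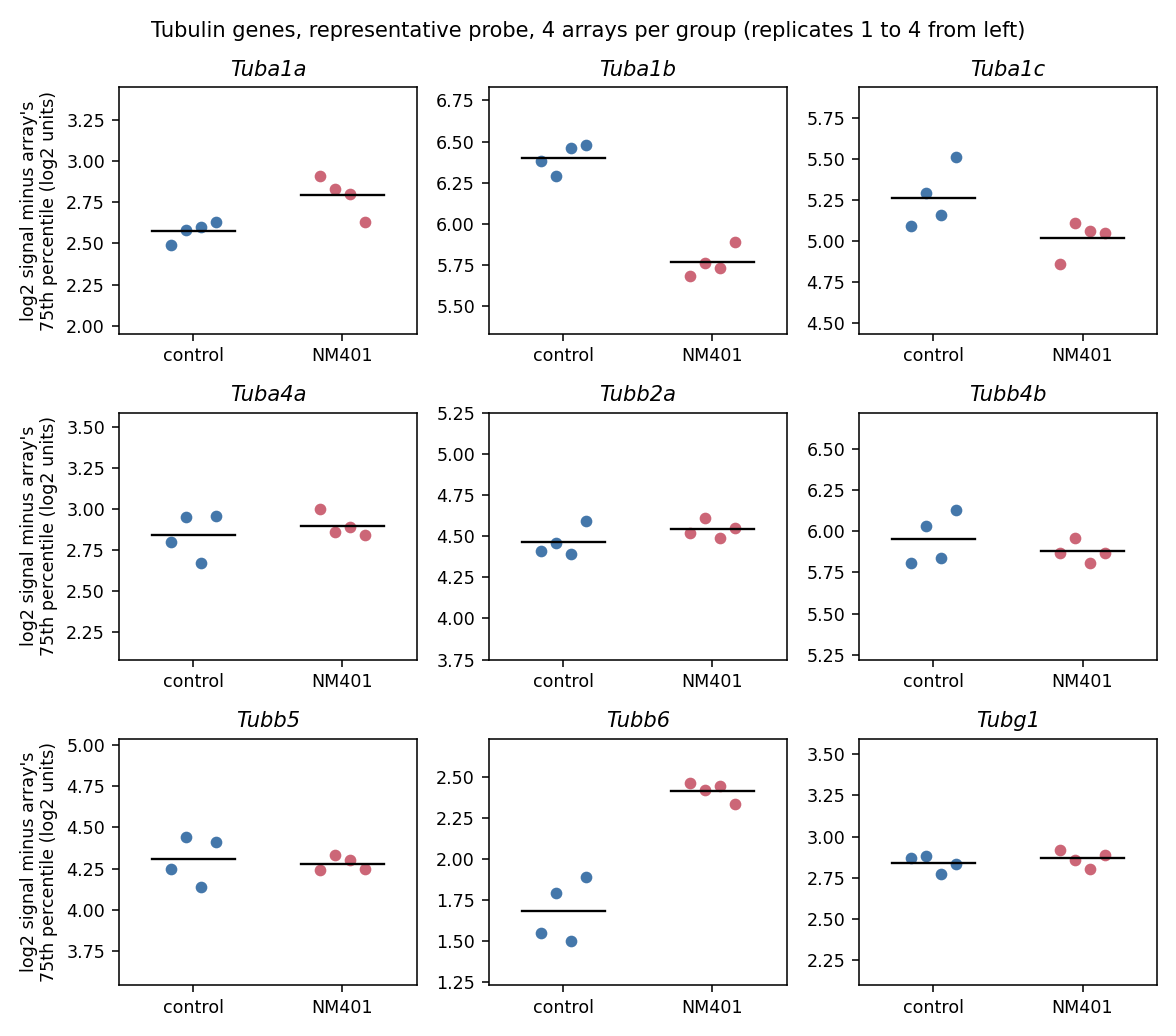
Log2 signal minus the array's 75th percentile (y axis, log2 units, the same span in each panel) for the representative probe of the 9 tubulin genes, with 1 point per array, replicates 1 to 4 from left, and lines at group means. The 4 NM401 points of Tuba1b lie below its 4 control points and those of Tubb6 above, while the other 7 genes overlap.

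Tuba1b encodes a major alpha isotype of most cell types. Its brighter probe (A_64_P037963, chr7:137706854-137706913, minus strand, rn4) read 6.38, 6.29, 6.46 and 6.48 in control replicates 1 to 4 and 5.68, 5.76, 5.73 and 5.89 in NM401 replicates 1 to 4. All 4 NM401 arrays were lower than all 4 control arrays, and the gap between the groups was wider than the range within either. The difference was -0.64 ± 0.07 (log2, SE; 95% interval -0.79 to -0.48; adjusted p = 0.000201, limma). The background-subtracted signal of this probe before scaling was 85300 to 116000 in control and 138000 to 151000 in NM401, so it rose less than the 75th percentile did. No spot on the arrays was marked as saturated. Slide 1 alone, where NM401 replicate 1 is the only treated array, gave a difference of -0.72. The fit that blocked on slide gave the same value by construction, since slide 2 held no control array. The difference was -0.19 after quantile normalisation, still called, and 1.66 on the spike-in scale, where the direction turned.

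The other Tuba1b probe matches accessions of both Tuba1a and Tuba1b. It read 2.67, 2.82, 2.74 and 3.25 in control and 2.70, 2.90, 2.91 and 2.89 in NM401. The groups overlapped, control replicate 4 was the highest of the 8, and the difference was -0.02 ± 0.13 (SE; 95% interval -0.31 to 0.28; adjusted p = 0.915, limma). The probes therefore disagreed. Subtraction within each array removes a constant scaling of that array, but not a shift that depends on brightness. The brighter probe stood 3.71, 3.47, 3.72 and 3.22 above the shared one in control. In NM401 it stood 2.98, 2.86, 2.83 and 3.00 above it. These differences did not overlap between control and NM401 (change -0.62, exact permutation p = 0.0286, two-sided, the smallest possible, 0.05 after adjustment over 7 pairs of probes of the same gene). After quantile normalisation the probes lay closer, with log2 fold changes of -0.19 for the brighter probe and 0.10 for the shared one. With the mean of both probes in place of the brighter one, Tuba1b fell by 0.33 and was still called.

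Tubb6 is a divergent beta isotype whose protein is known to loosen microtubule arrays when abundant. It was measured by 1 probe with 2 spots per array (A_44_P1022458, chr18:63928978-63929037, plus strand, rn4). The probe read 1.55, 1.79, 1.50 and 1.89 in control and 2.46, 2.42, 2.44 and 2.33 in NM401. All NM401 arrays were higher than all control arrays, and the NM401 values lay within a narrower range than the control values. The difference was 0.73 ± 0.09 (log2, SE; 95% interval 0.51 to 0.94; adjusted p = 0.000443, limma). The signal before scaling was 3340 to 5160 in control and 12800 to 15800 in NM401. Within slide 1, with 1 treated array, the difference was 0.77 and was no longer called. With slide as a block it was also 0.77 (adjusted p = 0.0117, limma), by construction, since slide 2 held no control array. Its direction was higher under all 21 settings tried, and it was called in 20 of them.

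Tuba1a lies beside Tuba1b on chromosome 7 and was measured by 1 probe (A_42_P622436, chr7:137729455-137729514, minus strand, rn4). Its values were 2.49, 2.58, 2.60 and 2.63 in control and 2.91, 2.83, 2.80 and 2.63 in NM401. NM401 replicates 1 to 3 were higher than all controls, and NM401 replicate 4 was level with control replicate 4. The difference was 0.22 ± 0.07 (log2, SE; 95% interval 0.05 to 0.38; adjusted p = 0.0311, limma). This call was the least stable of the 3. It was lost when control replicate 1, 2 or 3 or NM401 replicate 1, 2 or 3 was left out (difference 0.18 to 0.22) and within slide 1 (0.33, adjusted p = 0.0985), and it was kept in 12 of 21 settings.

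Tuba1c, the third alpha gene of the chromosome 7 group, encodes a close relative of the Tuba1b product. Its brightest probe, printed above, read 5.09, 5.29, 5.16 and 5.51 in control and 4.86, 5.11, 5.06 and 5.05 in NM401. The groups overlapped only through control replicate 1 and NM401 replicate 2. The difference was -0.24 ± 0.10 (log2, SE; 95% interval -0.48 to -0.01) and missed the threshold (adjusted p = 0.0743, limma). The other Tuba1c probes, each with 10 spots per array, gave -0.03 ± 0.13 at chr7:137817389-137817448 and 0.06 ± 0.13 at chr7:137786497-137786553 (SE). Within each array, the brightest probe stood lower relative to either of these in all 4 NM401 arrays than in any control array, by 0.21 and 0.30 on average (exact permutation p = 0.0286 each, 0.05 after adjustment over the 7 pairs). The other probes share a run of 54 bases, so their comparisons are not independent. Even between those overlapping probes, the difference did not overlap between groups. It changed by -0.09 (exact permutation p = 0.0286, 0.05 after adjustment). After quantile normalisation the brightest probe gave 0.09 and the others 0.23 and 0.28. As scaled here, the 3 neighbouring genes gave 1 lower call, 1 higher call and 1 gene that did not pass.

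Tuba4a encodes the alpha isotype made without a terminal tyrosine. The probe across the end of its reading frame read 2.80, 2.95, 2.67 and 2.96 in control and 3.00, 2.86, 2.89 and 2.84 in NM401, with the groups overlapping throughout. Its difference was 0.05 ± 0.08 (log2, SE; 95% interval -0.13 to 0.23; adjusted p = 0.6, limma). A dim probe with 2 spots (A_42_P490278, chr9:74496229-74496288, minus strand, rn4), which the files tie to Tuba4a through a single messenger sequence and not through its RefSeq accession, read -4.47, -4.13, -3.89 and -4.08 in control and -4.75, -4.80, -4.49 and -4.34 in NM401. Control replicate 1 lay among the NM401 values and the other controls above them. This probe fell by 0.45 ± 0.15 (SE; adjusted p = 0.0291, limma), but it lost the call after quantile normalisation (-0.32, adjusted p = 0.102), median scaling (-0.25, adjusted p = 0.205) and with slide as a block (-0.60, adjusted p = 0.0904). The change in the difference between both Tuba4a probes within an array was 0.50, with overlap (exact permutation p = 0.0571, 0.08 after adjustment). Counted by probe rather than by gene, 2 of the 15 probes were higher, 2 lower and 11 not called, where 56.2% of all 21685 probes tested were called, 22.1% higher and 34.1% lower.

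**Figure D2:**
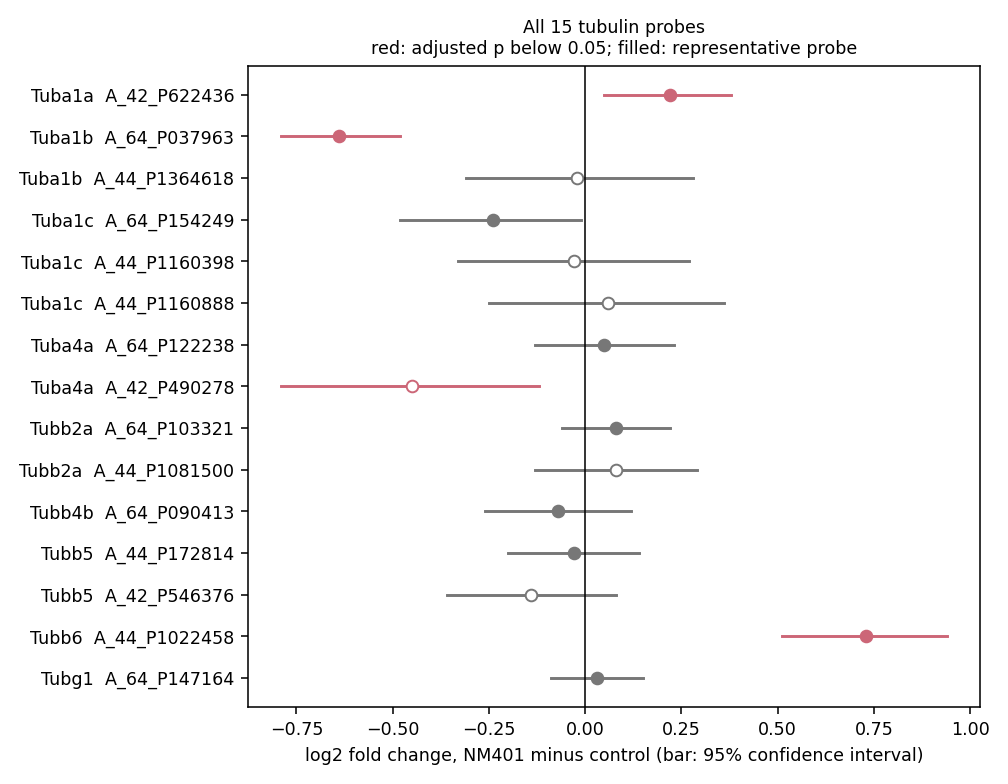
Log2 fold change (x axis, NM401 minus control) of all 15 tubulin probes with 95% confidence intervals, filled where the probe represents its gene and red where the adjusted p was below 0.05. The 2 Tuba1b probes lie at -0.64 and -0.02 and the 2 Tuba4a probes at 0.05 and -0.45, while both Tubb2a probes lie at 0.08.

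The remaining beta genes encode isotypes that make up much of the beta-tubulin of non-neuronal cells. For Tubb4b (A_64_P090413, chr3:3387048-3387107, minus strand, rn4) the values were 5.81, 6.03, 5.84 and 6.13 in control and 5.87, 5.96, 5.81 and 5.87 in NM401. The groups overlapped and the difference was -0.07 ± 0.08 (log2, SE; 95% interval -0.26 to 0.12; adjusted p = 0.468, limma). Its signal before scaling was 66900 to 97500 in control and 149000 to 169000 in NM401. The probe of Tubb5, the common beta isotype of dividing cells, read 4.25, 4.44, 4.14 and 4.41 in control and 4.24, 4.33, 4.30 and 4.25 in NM401. NM401 values lay inside the control range, with a difference of -0.03 ± 0.07 (SE; 95% interval -0.20 to 0.14; adjusted p = 0.734, limma). A second Tubb5 probe (chr20:3064610-3064669, plus strand) gave -0.14 ± 0.10 (SE). Under quantile normalisation Tubb4b and Tubb5 were called higher instead, at 0.38 and 0.21.

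Tubb2a (A_64_P103321, chr17:37142966-37143025, plus strand, rn4) read 4.41, 4.46, 4.39 and 4.59 in control and 4.52, 4.61, 4.49 and 4.55 in NM401. Control replicate 4 lay among the NM401 values and the difference was 0.08 ± 0.06 (log2, SE; 95% interval -0.06 to 0.22; adjusted p = 0.29, limma). The probe that cannot separate Tubb2a from Tubb2b also gave 0.08, with an SE of 0.09. The call of Tubb2a depended on background and scaling, since it was called higher after normexp correction (0.15, adjusted p = 0.0481), with the deposited series values (0.19), after quantile normalisation (0.36), after median scaling (0.29) and on the spike-in scale (2.37).

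Tubg1 encodes the main gamma-tubulin, which nucleates microtubules and is not part of their wall. Its probe (A_64_P147164, chr10:90144343-90144402, plus strand, rn4) read 2.87, 2.88, 2.77 and 2.83 in control and 2.92, 2.86, 2.80 and 2.89 in NM401. All 8 values lay close together, and the 95% interval of the difference of 0.03 ± 0.05 (log2, SE) ran from -0.09 to 0.15 (adjusted p = 0.678, limma). It was called higher after quantile normalisation (0.14) and median scaling (0.23).

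A difference between genes of 1 array does not change when the whole array is scaled, so the genes were also set against one another within each array. Each gene's value minus the median of the 9 genes on that array changed by -0.60 for Tuba1b, -0.21 for Tuba1c, 0.76 for Tubb6 and 0.25 for Tuba1a, and by -0.04 to 0.11 for the rest. The median gene was Tubb5 on each of the 8 arrays, so its own change is 0 by construction. With each gene read by its brightest probe, control and NM401 arrays did not overlap for Tuba1b, Tuba1c and Tubb6. The other probes of Tuba1b (log2 fold change -0.02) and Tuba1c (-0.03 and 0.06) did not enter this comparison. The share of all genes without overlap was not computed for this measure. The mean of the 4 alpha genes minus the mean of the 4 beta genes was 0.18, 0.10, 0.26 and 0.14 in control and -0.16, -0.19, -0.14 and -0.15 in NM401. All NM401 arrays were lower, with means of 0.17 ± 0.07 and -0.16 ± 0.02 (SD, n = 4 each), a change of -0.33. Probes differ in brightness per molecule, so only this change can be read and not the level itself. Without Tuba1b and Tubb6, left out after their values were seen, the change was 0.02 and the groups overlapped. The shift of alpha against beta thus rested on these 2 genes.

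**Figure D3:**
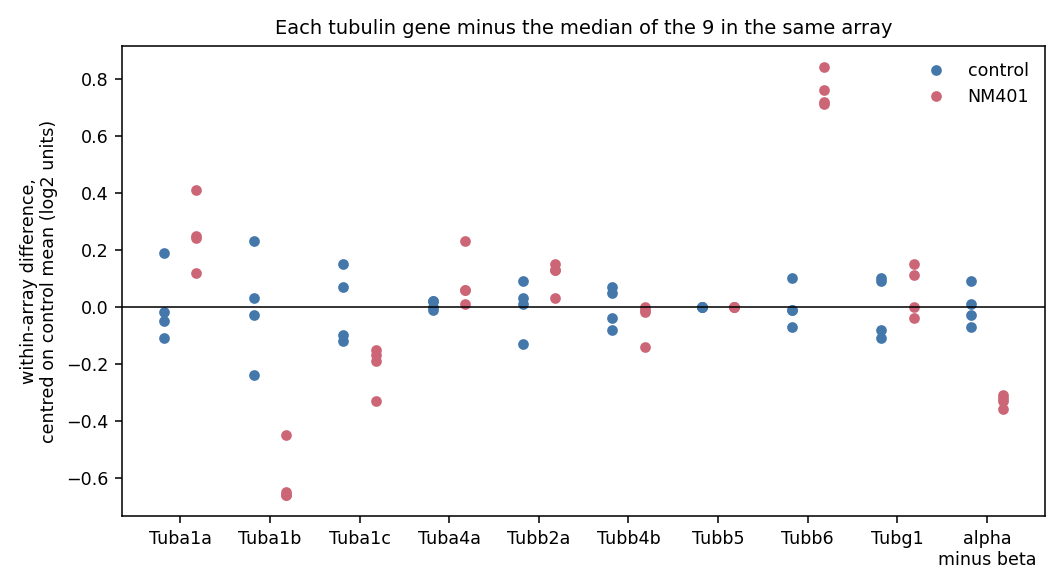
Each tubulin gene's log2 value (representative probe) minus the median of the 9 genes on the same array, and the alpha mean minus the beta mean. All are centred on the control mean (y axis, log2 units), with 1 point per array. NM401 points lie apart from control points for Tuba1b, Tuba1c and Tubb6 and for alpha minus beta, and Tubb5 is at 0 because it was the median gene on every array.

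The representative tubulin probes, each the brightest of its gene, were bright. By the mean signal of these probes, 8 of the 9 genes fell in the brightest 10% of genes tested and Tubb6 in the next 10%. The second Tuba4a probe was dim, with a control mean of -4.14. In the brightest 10% (1745 genes) the median log2 fold change was -0.25, with 11.1% of genes called higher and 58.5% lower. In the next 10% the median was -0.11, with 21.6% higher and 40% lower. Beside that, Tuba1b lay below the median of the brightest 10% and Tuba1c near it. The other 6 members in that 10% lay above it, at -0.07 to 0.22. Brightness also differed within that 10% (control mean 2.57 for Tuba1a and 6.4 for Tuba1b). Replicates were also less alike in control: the SD over 4 arrays was larger in control than in NM401 for 7 of 9 tubulin genes (77.8%; median SD 0.138 against 0.0645) and for 66.1% of all genes (0.135 against 0.0981).

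**Figure D4:**
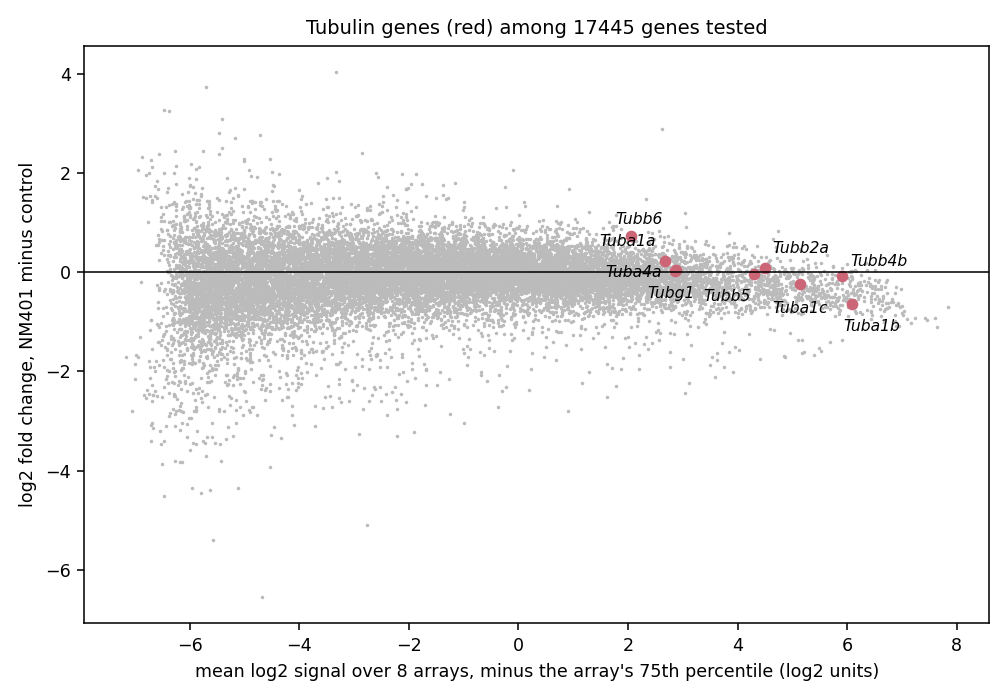
Log2 fold change, NM401 minus control (y axis), against the mean log2 signal over 8 arrays minus the 75th percentile (x axis), for 17445 genes tested (grey) with the 9 tubulin genes in red. The tubulin genes lie at the bright end, where the cloud bends below 0, with Tubb6 above it and Tuba1b at its lower part.

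Other tubulin genes were read in the same way. Of 11 listed, 10 were on the array by name and 5 were tested, with 1 higher and 2 lower. Over all 17445 genes tested, 21.9% were called higher and 35.4% lower. Tubd1, the delta-tubulin gene of centrioles, read -3.86, -4.23, -4.32 and -4.20 in control and -3.64, -3.51, -3.45 and -3.58 in NM401. All NM401 arrays were higher, by 0.61 ± 0.10 (log2, SE; adjusted p = 0.00165, limma), although the difference was -0.01 after normexp correction and the call was lost with slide as a block (0.51, adjusted p = 0.0538). Tubb2b, the neighbour of Tubb2a, fell by 0.24 ± 0.08 (adjusted p = 0.0265) and Tuba3a, known from testis, by 0.27 ± 0.09 (adjusted p = 0.0388). Both calls were lost under median scaling (-0.04 and -0.06) and with slide as a block (-0.09 and -0.40), and when control replicate 2 or 4 or NM401 replicate 2, 3 or 4 was left out (-0.29 to -0.20), that of Tuba3a also without NM401 replicate 1 (-0.22). Tuba3b (-0.07) and the epsilon-tubulin gene Tube1 (0.06) did not pass. Tubb3, the neuronal beta isotype, Tubb4a and Tubg2 were well above background on none of the 8 arrays, and Tuba8 and Tubal3 on 1 NM401 array each.

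Around the tubulins, 140 genes of the microtubule system were listed, and of 103 tested 27 were higher and 15 lower, with a median log2 fold change of 0.04. The share called was again to be read against 21.9% and 35.4% of all genes. Within slide 1, with its 1 treated array, the log2 difference was 0.72 for Kif3a and 0.74 for Kif5b. It was -0.78 for Tbcd, -0.5 for Stmn1 and -0.72 for Dctn1. Among folding cofactors and chaperones, which take newly made tubulin to the dimer, 5 of 19 were higher and 2 lower (median 0.05). Tbcd, the cofactor that holds beta-tubulin while the dimer is assembled, fell by 0.76 ± 0.08 (log2, SE; adjusted p = 0.000176, limma) and was called lower in all 20 settings other than spike-in scaling. It read 0.67, 0.58, 0.86 and 0.89 in control and -0.03, 0.00, 0.04 and -0.04 in NM401, with a wide gap between the groups. The prefoldin subunit genes Pfdn4 and Pfdn6 rose by 0.46 ± 0.06 and 0.28 ± 0.05, and Tbcc, the cofactor that releases the finished dimer, by 0.16 ± 0.05. The Tbcc call was lost with slide as a block (0.09, adjusted p = 0.367) and without NM401 replicate 2, 3 or 4 (0.14 to 0.16). Cct5, a subunit of the chaperonin that folds tubulin and actin, fell by 0.26 ± 0.06, a call lost under median scaling (-0.06) and with slide as a block (-0.21, adjusted p = 0.106).

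Of 8 genes listed for tubulin autoregulation and messenger decay, 2 were higher and 2 lower (median -0.15, and 0.05 under median scaling). Ttc5, which recognises nascent tubulin, rose by 0.39 ± 0.09 (log2, SE; adjusted p = 0.00719, limma), and the deadenylase gene Cnot7 by 0.30 ± 0.08. The genes of the CCR4-NOT scaffold Cnot1 and of its partner Cnot3 fell by 0.25 ± 0.06 and 0.43 ± 0.05. With slide as a block the calls of Ttc5 (0.41, adjusted p = 0.0772) and Cnot1 (-0.29, adjusted p = 0.0703) were lost. That of Cnot1 was also lost after quantile normalisation (-0.14) and median scaling (-0.05), and that of Cnot7 with the mean of its probes (0.10). In the gamma-tubulin ring complex list, 2 of 9 genes were lower and 0 higher by limma (median 0.02; 3 were higher at an unadjusted p below 0.05). These were Tubgcp6, a subunit of the ring (-0.42 ± 0.14), and Actr1a (-0.32 ± 0.07), which encodes the actin-related filament of dynactin and is no ring subunit. Under median scaling neither was called (-0.22 and -0.12) and 4 of the 9 were higher, as were 6113 of all 17445 genes. The Tubgcp6 call was also lost with slide as a block (-0.61, adjusted p = 0.0709), after quantile normalisation (-0.31) and without control replicate 1 or 4 or NM401 replicate 1, 3 or 4 (-0.42 to -0.33).

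Tubulin modifying enzymes add or remove acetyl, tyrosine and glutamate marks. Of 11 tested, only Sirt2, a tubulin deacetylase, was called, and it rose by 0.40 ± 0.06 (log2, SE; adjusted p = 0.000969, limma). After normexp correction 6 of the 11 were lower, as were 9404 of all 17445 genes. All 4 calls among 5 severing genes were higher (median 0.37). These genes encode enzymes that cut microtubules and their partners: Spast rose by 0.48 ± 0.09, Katnbl1 by 0.37 ± 0.06 and Katna1 by 0.35 ± 0.08, and Fignl1 gave 0.74 ± 0.23. Fignl1 was well above background on 2 control and 4 NM401 arrays, so it was tested through the group in which it was high, and its difference was -0.35 after normexp correction, where it was called lower, and -0.14 with the deposited series values. Its call was also lost without control replicate 3 (0.72) and without NM401 replicate 1 or 2 (0.61 and 0.74). Among the 4 severing genes well above background on all 8 arrays, 3 were higher. With slide as a block 3 of the 5 were called higher, without Katna1 (0.39, adjusted p = 0.0539, limma), beside 2216 of all 17445 genes. Within slide 1, which holds 1 treated array, the median over the 5 was 0.39.

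Among microtubule-associated and plus-end proteins, 6 of 18 were higher and 3 lower (median 0.01). After normexp correction 4 were higher and 9 lower, beside 2745 higher and 9404 lower of all 17445 genes. Stmn3, counted among the 6, was well above background on 0 control and 4 NM401 arrays and so was tested only through the group in which it was high (0.60, with overlap). It was called lower after normexp correction (-0.51) and with the deposited series values (-0.46), and its call was lost with slide as a block (0.65, adjusted p = 0.205) and when any replicate other than control 4 was left out (0.44 to 0.64). Stmn1, which encodes stathmin, the protein that sequesters free tubulin dimers, read 4.98, 4.93, 4.93 and 4.90 in control and 4.44, 4.58, 4.45 and 4.51 in NM401. It was lower on all NM401 arrays, by 0.44 ± 0.05 (log2, SE; adjusted p = 0.000306, limma), though the difference shrank to -0.13 after quantile normalisation and was then not called. The stabilising proteins' genes Map4 and Map1s fell by 0.43 ± 0.05 and 0.31 ± 0.06, and Map1a rose by 0.65 ± 0.12. Clip1, a plus-end tracking protein gene, and Tacc3, of the mitotic spindle, both rose by 0.23, with SEs of 0.06 and 0.05. With slide as a block the calls of Map1a (0.47, adjusted p = 0.0841) and Clip1 (0.23, adjusted p = 0.0969) were lost. That of Map4 was lost with the mean of its probes (-0.19) and that of Map1s under median scaling (-0.11).

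Of 28 transport motor genes tested, 8 were higher and 4 lower (median 0.05). The kinesin genes Kif3a and Kif5b, which drive transport toward microtubule plus ends, rose by 0.73 ± 0.07 and 0.60 ± 0.07 (log2, SE; adjusted p = 0.000161 and 0.000271, limma), and both were called within slide 1 too (0.72 and 0.74). Bicd2, a dynein adaptor gene, rose by 0.52 ± 0.07. The dynein heavy chain gene Dync1h1 fell by 0.37 ± 0.11 and the dynactin subunit genes Dctn3 and Dctn4 by 0.45 ± 0.08 and 0.29 ± 0.09. Dync1h1 and Dctn4 were not called under quantile normalisation or median scaling. With slide as a block Dctn3 (-0.41, adjusted p = 0.0562) and Dctn4 (-0.10, adjusted p = 0.557) lost their calls, and Dctn4 did so without control replicate 1 or NM401 replicate 2, 3 or 4 (-0.28 to -0.22).

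The mean profile of the 9 tubulin genes over the 8 arrays was nearly flat. In that mean, Tubb6 (0.73) and Tuba1b (-0.64) changed in opposite directions, so it does not describe the called genes. By root mean square difference from it, after each gene was centred on its own mean, the named genes most like it included Diaph3 (0.0245), Rbx1 (0.0329), Mrpl55 (0.0332) and Timm13 (0.0339). Their log2 fold changes ran from 0.00 for Diaph3 to 0.05 for Mrpl55, and none of these 4 was called. Such small changes follow from the way these genes were picked and are no separate result.

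**Figure D5:**
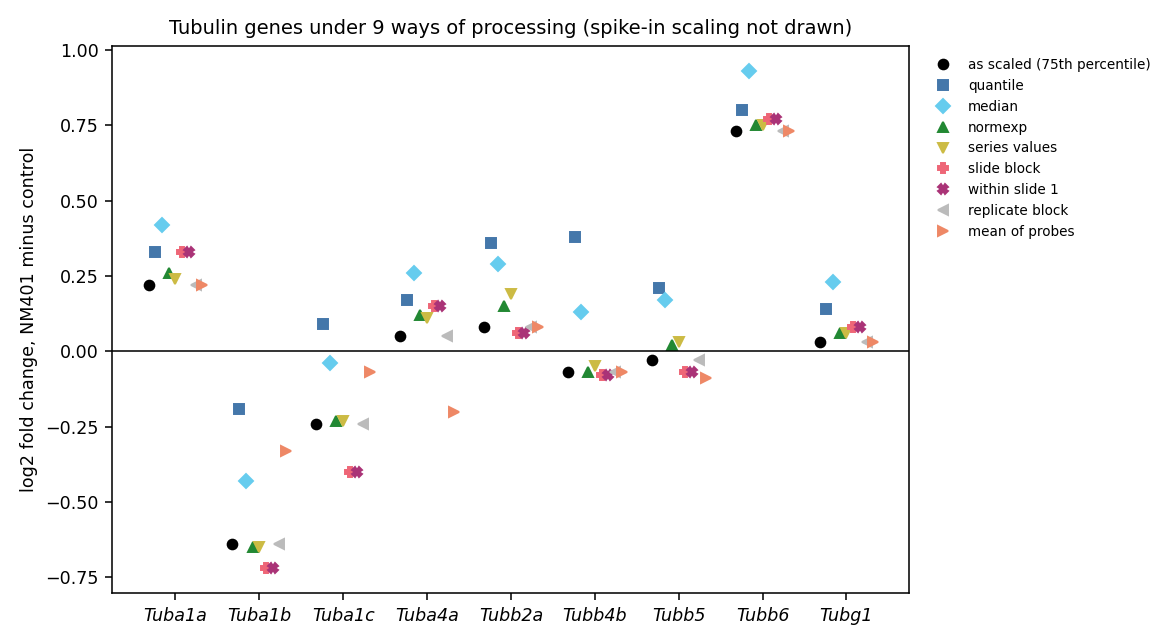
Log2 fold change (y axis, NM401 minus control) of each tubulin gene under 9 ways of processing, with spike-in scaling not drawn. Tubb6, Tuba1a, Tubb2a and Tubg1 stay above 0 and Tuba1b below 0 in each of these. Tuba1c, Tuba4a, Tubb4b and Tubb5 have points on both sides.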

How the data were processed

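Per the labels' protocols, cRNA made from total RNA of NR8383 cells carried Cy3 and went on 1-colour Agilent arrays. The scanner files that the authors deposited give spot intensity as written by Agilent Feature Extraction (version 11.0.1.1 per the submitters' processing notes). Per the file headers, their processed signal had background subtracted and spatial trends removed inside each array, with no scaling across arrays. The series values that were deposited too are median pixel intensity (equal in 503808 of 503808 values).

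Spots that the software marked as outliers were removed, log2 values of replicate spots were averaged (47 probes dropped), and log2 processed signal minus the array's 75th percentile over 58717 non-control spots was used. A probe was tested (21685 of 45598) if well above background on 4 or more of 8 arrays, in 50% or more of its spots. Groups were compared in R 4.3.3 (files read with data.table, version 1.17.8) by the moderated linear model of limma (version 3.58.1, functions lmFit and eBayes), two-sided and without covariates, with Benjamini-Hochberg adjustment over every probe in the fit. The representative of a gene is its tested probe with the highest mean signal. Symbols came from the files, and accessions were looked up in a RefSeq table of assembly GRCr8 for names alone (21109 probes matched). The fit was tested on simulated data. Named genes are all 9 tubulins, up to 3 called genes with the smallest p in each direction of each microtubule list, and the 5 genes most like the family's mean profile, 1 of which is not reported here; Fignl1, Stmn3, Dctn1, the other tubulins and the cell type markers were added after their values were seen. The members and lists were chosen with earlier results of these data known. Other normalisations, background corrections, filters, blocks and left-out replicates were tried. Precision is limited by 4 arrays per group.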

Additional observations from a re-analysis of the deposited data

Results flagged for a closer look

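In 50 groups of 4 arrays, made from the values of each tubulin probe and the differences within an array, 5 had 1 array far from the other 3, where chance gives about 1 in 20. Control replicate 4 read 2.61 at the Tubb2a and Tubb2b probe, against 2.24 to 2.28 in the other controls. NM401 replicate 1 read 2.70 at the Tuba1b and Tuba1a probe, against 2.89 to 2.91 in the other NM401 arrays. Relative to the median tubulin gene of the same array, Tuba1b stood at 1.64 in NM401 replicate 4, against 1.43 to 1.44 in the other 3. On the same measure NM401 replicate 3 was low for Tubb2a, at 0.18 against 0.28 to 0.30, and for Tubb4b, at 1.50 against 1.62 to 1.64.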

How the results depend on the processing

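Over the alternatives, 152 of the values of single tubulin genes kept their direction and side of the threshold, or stayed uncalled in either direction. A further 12 gained a call and 10 lost one in the same direction. In 6 the direction turned, with a call before or after. Quantile normalisation gave 6 tubulin genes higher (Tubb2a 0.36, Tubb4b 0.38, Tubb5 0.21, Tubg1 0.14) and 9 microtubule list genes lower. Of all 17445 genes it gave 4776 higher and 4873 lower. Median scaling gave 5 tubulin genes higher (Tuba4a 0.26, Tubb2a 0.29, Tubg1 0.23), 47 list genes higher and 5 lower, and 6113 of all genes higher and 3360 lower. Spike-in scaling gave 9 tubulin genes higher and 0 lower in limma, 0 also at an unadjusted p below 0.05 (Tuba1b 1.66, Tuba1c 2.05, Tuba4a 2.34, Tubb2a 2.37, Tubb4b 2.22, Tubb5 2.26, Tubg1 2.32), 103 list genes higher and 0 lower, and 17056 of all genes higher and 54 lower, each by adding the same shift to every gene. Normexp correction gave 36 list genes and 9404 of all genes lower and called Tubb2a at 0.15. The deposited series values gave 29 list genes and 8435 of all genes lower and called Tubb2a at 0.19. The share of calls that were higher was 38.2% as scaled here, 22.6% after normexp, 25% with the series values, 27.5% without a filter, 49.5% after quantile normalisation, 64.5% after median scaling and 99.7% on the spike-ins, with medians over all genes of -0.10, -0.24, -0.21, -0.39, -0.01, 0.11 and 2.20. Without the filter 1 tubulin gene was called higher, Tubb6 (0.73), beside 2951 of 36276 genes. Tuba1a (0.22) was not called there. With slide as a block 2216 of all genes were higher and 3525 lower. Within slide 1, where NM401 replicate 1 stands alone and is assumed to vary like the controls, 752 were higher and 1362 lower, 2 list genes higher and 3 lower, and 0 tubulin genes higher at adjusted p below 0.05 in limma, 2 at an unadjusted p below 0.05 (Tuba1a 0.33, Tubb6 0.77). The intensity trend gave 2 tubulin genes and 6394 of all genes lower, with Tuba1c at -0.24 (adjusted p = 0.0369, limma). Same-numbered replicates were not paired (correlations of their deviations 0.19, 0.00, 0.08 and -0.07). With the replicate block 1 tubulin gene was called higher, Tubb6 (0.73, adjusted p = 0.00517, limma). Tuba1a lost its call there (0.22, adjusted p = 0.0836, limma), and 3535 of all genes were higher and 5845 lower. Leaving out 1 array gave 1 to 2 tubulin genes higher and 1 to 2 lower, with Tuba1a at 0.18 to 0.27, called only without control replicate 4 or NM401 replicate 4, and Tuba1c at -0.30 to -0.16, called without control replicate 1 alone. The alpha minus beta change was 0.02 without Tuba1b and Tubb6 and -0.36 to -0.26 under the other alternatives. Where no cause is given, the cause was not tested.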
